A study of Mus musculus with 6 samples.

Results

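Acute phase proteins are plasma proteins that the liver makes in larger amounts during inflammation or injury. The cytokines IL-6 and IL-1 reach hepatocytes through their receptors and act mainly through the transcription factors STAT3, C/EBPβ and NF-κB, and the proteins made carry lipophilic drugs and lipids, bind free haemoglobin or haem, or withhold iron from bacteria. Described here are 10 genes of this group, of 18193 genes that a probeset of the array names alone: the orosomucoids Orm1, Orm2 and Orm3, the serum amyloids Saa1, Saa2, Saa3 and Saa4, haptoglobin (Hp), hemopexin (Hpx) and lipocalin 2 (Lcn2). They were chosen by symbol and hold 12 probesets, each annotated to exactly 1 of these genes, and all 12 had a mean signal above the lower limit for the test.

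Liver RNA came from 3 KRAP-/- mice and 3 wild-type mice, paired as littermates (pairs 1, 2 and 3), all 32 weeks old, fed normal chow and on a C57BL6/J background. The KRAP-/- mice lack part of the coding exons of KRAP, replaced by a neomycin resistance cassette in every tissue, so the line does not separate the liver from the rest of the body. Each liver was hybridized to 1 Affymetrix Mouse Genome 430 2.0 array. Signals are given in units of the median signal of the array, and a log2 fold change is KRAP-/- over wild-type with the littermate pair as a block, with its standard error and a p-value adjusted over all 28531 probesets tested with limma.

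The array medians were 20.2 to 23.4 signal units in KRAP-/- liver and 19.1 to 22.6 in wild-type liver, and each array had a median correlation with the others of 0.9483 to 0.9523 over the probesets tested, across probesets, which are not independent. The only probeset of KRAP (now Itprid2) read 20.0 to 21.6 in KRAP-/- liver and 22.3 to 24.5 in wild-type liver (log2 fold change −0.17, adjusted p = 0.44 from limma). Nothing in the sources used here places it in the deleted part, so it does not check the labels. The 7 tested markers of hepatocytes were bright on every array, with a summed signal of 3475 to 3995 in KRAP-/- liver and 3620 to 3692 in wild-type liver, and none of them passed the test.

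Of the 12 probesets, that of Orm2 was higher in KRAP-/- liver and none was lower, where 0.431% of all probesets tested were higher and 0.978% lower. The methods of the study asked for a 1.5-fold ratio in every one of the 3 pairs. With this limit applied to the signals used here, 1 of the 12 probesets, again Orm2, met it upward and 0 downward. Of all 45037 probesets, 2.3% met it upward and 2.88% downward. Those 45037 include probesets too dim to test, while all 12 were bright enough, so these percentages are not a matched background. In both directions the limit took several times as many liver probesets here as the paper reports, and the cause was not tested. The values of the 2 genotypes did not overlap at 2 of the 12 probesets, Orm2 and Lcn2, both with the higher values in KRAP-/- liver. Over all probesets tested the same was true of 7.8%, and 12.3% did not overlap with the lower values in KRAP-/- liver. The median log2 fold change was −0.04 over the 12 probesets and −0.04 over all probesets tested.

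**Figure D1:**
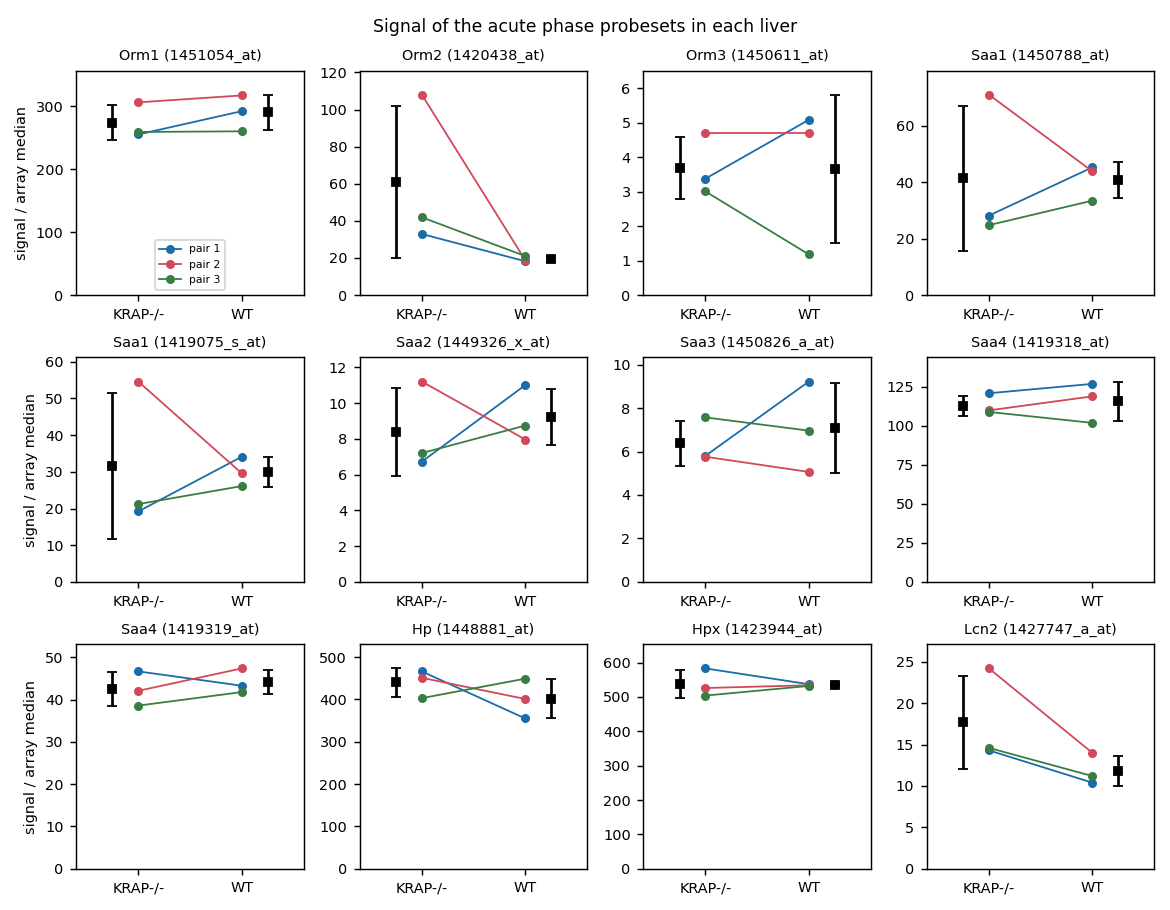
Signal divided by the array median for the 12 probesets, on linear axes from 0, in KRAP-/- and wild-type (WT) liver. Each point is 1 mouse, coloured and connected by pair. Squares mark genotype means, with bars of 1 SD (n = 3). Orm2 and Lcn2 are higher in the KRAP-/- mouse of each pair, and the KRAP-/- mouse of pair 2 holds the highest point of both and of Saa1 and Saa2.

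The orosomucoids, or alpha-1-acid glycoproteins, are lipocalins that carry basic and neutral lipophilic drugs and steroids in plasma. Their genes lie next to each other on chromosome 4 (GRCm38.p6), Orm1 at chr4:63344556-63348163, Orm3 at chr4:63356069-63359506 and Orm2 at chr4:63362449-63365877. Orm2 (probeset 1420438_at) read 32.9, 108 and 41.9 in the KRAP-/- livers of pairs 1, 2 and 3, against 18.2, 18.8 and 21.0 in their wild-type littermates. All 3 KRAP-/- livers lay above all 3 wild-type livers, and the KRAP-/- liver of pair 2 stood far above the other 2. KRAP-/- livers averaged 60.9 ± 41.0, against 19.3 ± 1.45 in the wild type (SD, n = 3 each), and the ratios within pairs 1, 2 and 3 were 1.80, 5.74 and 2.00. The log2 fold change was 1.46, standard error 0.26 (95% confidence interval 0.86 to 2.05, adjusted p = 0.035 from limma), and 98.5% of all probesets tested had a smaller absolute change. Without pair 2 it was 0.92 (adjusted p = 2.6e-04 from limma), so the size of the rise rested in part on 1 mouse. Here and below, a fit without a pair leaves few residual degrees of freedom. Its p-values rest largely on the variance that limma shares over probesets, so a smaller one is not stronger evidence. Without the pair as a block the fold change of 1.46 had an adjusted p of 0.066.

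Orm1 and Orm3, the neighbours of Orm2, did not pass the test. Orm1 (1451054_at) read 255, 306 and 259 in KRAP-/- liver and 292, 317 and 260 in wild-type liver. The genotypes overlapped, with each KRAP-/- mouse slightly below its littermate, and the log2 fold change was −0.08 (95% confidence interval −0.26 to 0.09, adjusted p = 0.67). Orm3 (1450611_at) was dim, with 3.38, 4.72 and 3.01 in KRAP-/- liver and 5.09, 4.72 and 1.18 in wild-type liver. Its lowest value was the wild-type mouse of pair 3, the ratio ran from 0.665 in pair 1 to 2.54 in pair 3, and the fold change of 0.25 (95% confidence interval −0.46 to 0.96, adjusted p = 0.76) leaves a change of either sign possible. These adjusted p-values are from limma.

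The changes of the orosomucoids were set against each other within each array, which does not depend on how the arrays are scaled. The log2 signal of Orm2 minus that of Orm1 averaged −2.36 in KRAP-/- liver and −3.90 in wild-type liver, a difference of 1.54, with no overlap between the genotypes. An exact permutation test over the 6 livers, 2-sided and without regard to the littermate pairs, gave p = 0.10. This is the smallest p that 3 against 3 can give. The same difference between Orm2 and Orm3 changed by 1.20 (exact permutation p = 0.30), with overlap. With 3 livers a genotype this test cannot pass a threshold of 0.05, whatever the values. With the pairs kept, exact sign flips of 3 pairs can give no 2-sided p below 0.25. Orm2 by itself already separated the genotypes, so the lack of overlap against Orm1 is not an independent result.

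The promoter of Orm2 is shown because it is the gene that passed the test. It is the stretch of 250 bases before the start of the gene in RefSeq's GRCm38.p6 annotation, at chr4:63362199-63362448 (+ strand), 5′ to 3′, with matches to the C/EBP motif in capitals. The motif searched was TTNNGNAA on both strands, and overlapping matches were kept.
Orm2 promoter: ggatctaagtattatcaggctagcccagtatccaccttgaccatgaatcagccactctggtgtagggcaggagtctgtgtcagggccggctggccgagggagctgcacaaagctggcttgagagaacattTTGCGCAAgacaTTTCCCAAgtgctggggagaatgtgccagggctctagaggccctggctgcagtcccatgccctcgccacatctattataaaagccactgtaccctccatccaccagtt
It holds 2 matches, TTGCGCAA and TTTCCCAA, and the core promoter element TATAAA begins 33 bases before the start. The window of Orm3, chr4:63355908-63356157, precedes a start site that lies inside the RefSeq span of the gene, so that 89 of its 250 bases are within that span. The windows of Orm2 and Orm3 shared 219 of 255 aligned positions (85.9%). That of Orm3 holds the match TTGCACAA and TATAAA. Whether transcripts of one of these paralogs bind the probes of the other was not tested.

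The acute phase serum amyloids Saa1 and Saa2 replace apolipoprotein A-I on high density lipoprotein during inflammation and are the precursors of amyloid A fibrils. Saa3 is made mainly outside hepatocytes in the mouse, in macrophages and adipocytes, and Saa4 is the constitutive form of the family. All 4 genes lie together on chromosome 7, Saa3 at chr7:46711998-46719615, Saa4 at chr7:46727992-46732603, Saa1 at chr7:46740497-46743181 and Saa2 at chr7:46751833-46754313. The first Saa1 probeset (1450788_at) read 28.2, 71.1 and 24.8 in the KRAP-/- livers of pairs 1, 2 and 3, against 45.3, 43.9 and 33.5 in their wild-type littermates. The second (1419075_s_at) read 19.2, 54.6 and 21.2 in KRAP-/- liver and 34.1, 29.6 and 26.1 in wild-type liver. In both the KRAP-/- liver of pair 2 was the highest of all 6 and the other KRAP-/- livers were the lowest 2. Saa2 (1449326_x_at) read 6.72, 11.2 and 7.20 in KRAP-/- liver and 11.0, 7.96 and 8.74 in wild-type liver, again with the highest value in the KRAP-/- liver of pair 2.

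With all 3 pairs the log2 fold changes were −0.14 and −0.08 for the Saa1 probesets and −0.17 for Saa2 (adjusted p = 0.81, 0.91 and 0.75 from limma), with 95% confidence intervals from −0.66 at the lowest to 0.49 at the highest. Without pair 2 they were −0.56, −0.57 and −0.50, with adjusted p-values of 0.031, 0.052 and 0.21 from limma. That fit held 28666 probesets, of which 0.649% were higher and 1.22% lower. Pair 2 was the only pair with a higher KRAP-/- value, so leaving it out had to make these fold changes more negative. Without pair 1 they were 0.13, 0.29 and 0.11, and without pair 3 they were 0.01, 0.03 and −0.11. None of these passed (adjusted p = 0.62 to 0.99 from limma). The direction in pair 2 was thus opposite to that in the other pairs for Saa1 and Saa2, while Orm2 and Lcn2 were higher in the KRAP-/- mouse of every pair. The names of these probesets carry a limit: 1419075_s_at is annotated to Saa1 but rests on a transcript that RefSeq now assigns to Saa2, and IDs that end in _s_at or _x_at mark probesets that may bind more than 1 transcript. Signals of Saa1 and Saa2 may therefore be mixed.

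The promoter of Saa2 is shown as an example of this pair of paralogs, whose probesets are hard to part. It is the stretch of 250 bases before the start of the gene in RefSeq's GRCm38.p6, at chr7:46751583-46751832 (+ strand), 5′ to 3′, with the C/EBP match in capitals.
Saa2 promoter: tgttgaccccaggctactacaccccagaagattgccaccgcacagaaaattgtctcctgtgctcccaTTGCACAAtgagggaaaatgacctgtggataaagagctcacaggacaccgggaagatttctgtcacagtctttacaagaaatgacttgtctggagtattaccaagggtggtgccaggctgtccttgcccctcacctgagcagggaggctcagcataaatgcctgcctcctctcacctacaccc
The table's window for Saa1, chr7:46742981-46743230 (- strand), also precedes a start site inside the RefSeq span of its gene, with 201 of its 250 bases within that span. The windows of Saa1 and Saa2 shared 238 of 251 aligned positions (94.8%), against 122 of 265 (46.0%) between Saa1 and Saa4. The match TTGCACAA is in both Saa1 and Saa2.

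Saa3 (1450826_a_at) read 5.80, 5.76 and 7.57 in KRAP-/- liver and 9.22, 5.06 and 6.96 in wild-type liver, with a log2 fold change of −0.12 (95% confidence interval −0.53 to 0.29, adjusted p = 0.80 from limma). It did not follow Saa1: the KRAP-/- mouse of pair 2 had the lowest of the KRAP-/- values. Both probesets of Saa4 were steady. The brighter (1419318_at) read 109 to 121 in KRAP-/- liver and 102 to 127 in wild-type liver, and the dimmer (1419319_at) 38.6 to 46.7 in KRAP-/- liver and 41.8 to 47.4 in wild-type liver. Their log2 fold changes were −0.03 and −0.06, with 95% confidence intervals of −0.21 to 0.16 and −0.27 to 0.15.

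**Figure D2:**
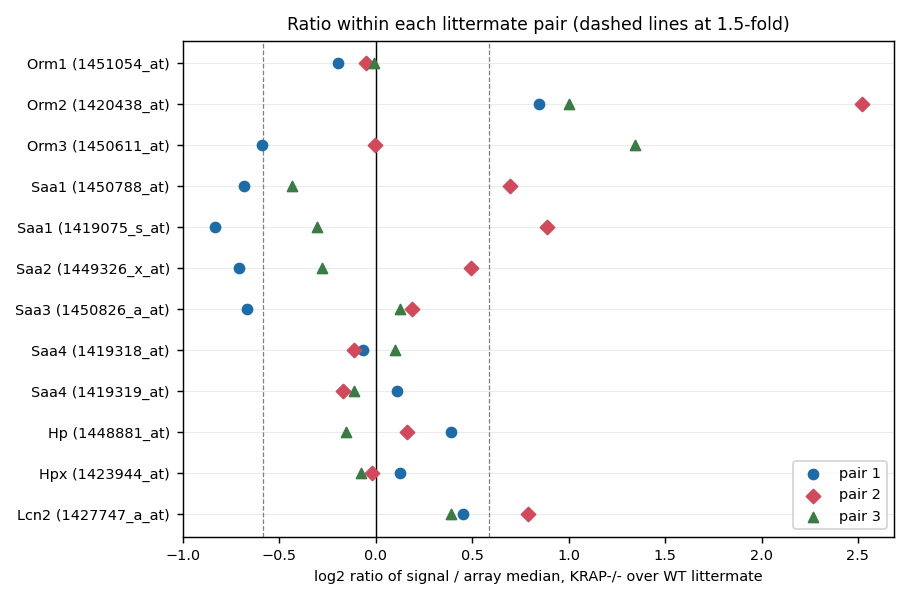
Log2 ratio of the signal in the KRAP-/- mouse over its wild-type littermate for each probeset, with a point per pair and dashed lines at 1.5-fold in either direction. The points of pair 2 lie to the right for Orm2, Saa1, Saa2 and Lcn2, and those of pair 1 to the left for Orm3, Saa1, Saa2 and Saa3.

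Read pair by pair, pair 1 had 1 of the 12 ratios at 1.5 or above (12.4% of all probesets tested), pair 2 had 4 (11.9%) and pair 3 had 2 (10.8%). The 4 of pair 2 were Orm2, Lcn2 and both probesets of Saa1. A ratio of at most 1/1.5 was read at 5 of 12 in pair 1 (Orm3, both of Saa1, Saa2 and Saa3), against 13.4% of all probesets tested, and at 0 in pairs 2 and 3, against 12.7% and 12.3%. The KRAP-/- array of pair 2 was the highest of the 6 at 5 of the 12 probesets, while it was the highest at 14.3% of all probesets tested. The median correlation of this array with the others was 0.9521, inside the range of the 6 arrays. A correlation of levels across all probesets tested cannot show a shift at a few of them. Whether the array or the mouse differed at these genes was not tested. Both probesets of Saa1 and that of Saa2 are among the 5 highest in this array and among the 5 low ratios of pair 1. Their signals may be mixed, so neither count holds 5 independent readings.

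Haptoglobin binds free haemoglobin and hemopexin binds free haem, and both complexes are cleared by the liver and its macrophages. Neither gene passed the test. Hp, at chr8:109575128-109579172, was read by 1448881_at at 466, 451 and 403 in KRAP-/- liver and 355, 401 and 449 in wild-type liver. The KRAP-/- mouse was higher in pairs 1 and 2 and lower in pair 3, and the log2 fold change was 0.13 (95% confidence interval −0.10 to 0.37, adjusted p = 0.59 from limma). Hpx, at chr7:105591611-105600116, was read by 1423944_at at 583, 526 and 504 in KRAP-/- liver and 537, 534 and 532 in wild-type liver. The wild-type livers lay within 1.01-fold of each other, the KRAP-/- livers lay on both sides of them, and the log2 fold change was 0.01 (95% confidence interval −0.17 to 0.18, adjusted p = 0.98), with a smaller absolute change at 2.02% of all probesets tested. The intervals of Hp, Hpx, Orm1, Saa3 and Saa4 leave out a 1.5-fold change of signal in either direction. Those of Orm3, Saa1 and Saa2 do not on at least 1 side. As deposited, Hpx read 10146 to 13647, where the highest signals of the arrays were 16608 to 21426. Whether signals this bright still follow the amount of RNA in proportion was not tested.

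Lipocalin 2 binds bacterial siderophores, the molecules with which bacteria take up iron, and is made by hepatocytes in the acute phase and by neutrophils as a granule protein. Lcn2, at chr2:32384637-32387739, was read by 1427747_a_at at 14.3, 24.2 and 14.6 in the KRAP-/- livers of pairs 1, 2 and 3, against 10.4, 14.0 and 11.2 in their wild-type littermates. All KRAP-/- livers lay above all wild-type livers, but the lowest KRAP-/- value, 14.3, was close to the highest wild-type value, 14.0. The ratios were 1.37, 1.73 and 1.31, and the log2 fold change was 0.55, standard error 0.12 (95% confidence interval 0.28 to 0.81), with an unadjusted p of 0.0011 and an adjusted p of 0.064 from limma, which does not pass. It passed after quantile normalization (adjusted p = 0.045), on unscaled signals (0.038), when the floor was 0.5 (0.045) and without pair 3 (0.032), and without pair 2 its adjusted p was 0.24 with a fold change of 0.42.

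Because neutrophils also hold Lcn2, their markers were read in the same livers, where fewer cells of a type and less RNA per cell cannot be told apart. Of 10 neutrophil markers with a probeset of their own, 7 were bright enough to test and none passed, with a median log2 fold change of −0.04 and a summed signal of 10.5 to 12.1 in KRAP-/- liver and 7.34 to 12.1 in wild-type liver. S100a8 and S100a9, the calprotectin subunits that abound in neutrophils, read 2.92 to 3.42 and 1.87 to 3.01 in KRAP-/- liver and 2.22 to 4.42 and 2.19 to 2.68 in wild-type liver. The granule gene Camp was below 0.17 on all 6 arrays. S100a8, S100a9 and Camp are named as exceptions, not for the size of their change. Csf3r and Elane had the largest values of the list, 0.87 (adjusted p = 0.25) and −0.68 (adjusted p = 0.63) from limma. Csf3r read 1.96, 3.09 and 3.35 in KRAP-/- liver and 1.39, 2.63 and 0.905 in wild-type liver, higher in all 3 pairs. Elane was lower in pairs 1 and 2 and higher in pair 3. Of the 7 tested, 3 log2 fold changes were above 0 and 4 below.

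Lcn2 lies on another chromosome than the other genes, and its promoter is shown because it is the other gene whose values did not overlap between the genotypes. It is the stretch at chr2:32387740-32387989 (- strand) of RefSeq's GRCm38.p6, in the same form.
Lcn2 promoter: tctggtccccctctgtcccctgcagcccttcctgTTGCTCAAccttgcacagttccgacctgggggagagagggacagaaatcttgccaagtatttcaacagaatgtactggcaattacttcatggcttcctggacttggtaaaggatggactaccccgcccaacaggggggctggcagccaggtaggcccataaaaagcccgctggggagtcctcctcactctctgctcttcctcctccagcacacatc
It holds 1 match to the C/EBP motif. A promoter window was in the table for 8 of the 10 genes, all but Orm1 and Hp, and each of the 8 held at least 1 match, where 36.9% of the 27025 windows of all genes did. The STAT motif TTCNNNGAA was in 0 of 8 and in 7.18% of all windows, the NF-κB motif in 0 of 8 and in 7.01%, and TATAAA in 2 of 8, those of Orm2 and Orm3, and in 13%. Of the 8 windows, those of Orm3 and Saa1 lie in part and that of Saa3 wholly inside the span of its gene. The windows of Orm2 and Orm3 (85.9% identical) and of Saa1 and Saa2 (94.8%) are near copies. The 8 are therefore not independent readings. These are matches of letters in a short window, not sites shown to be bound.

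**Figure D3:**
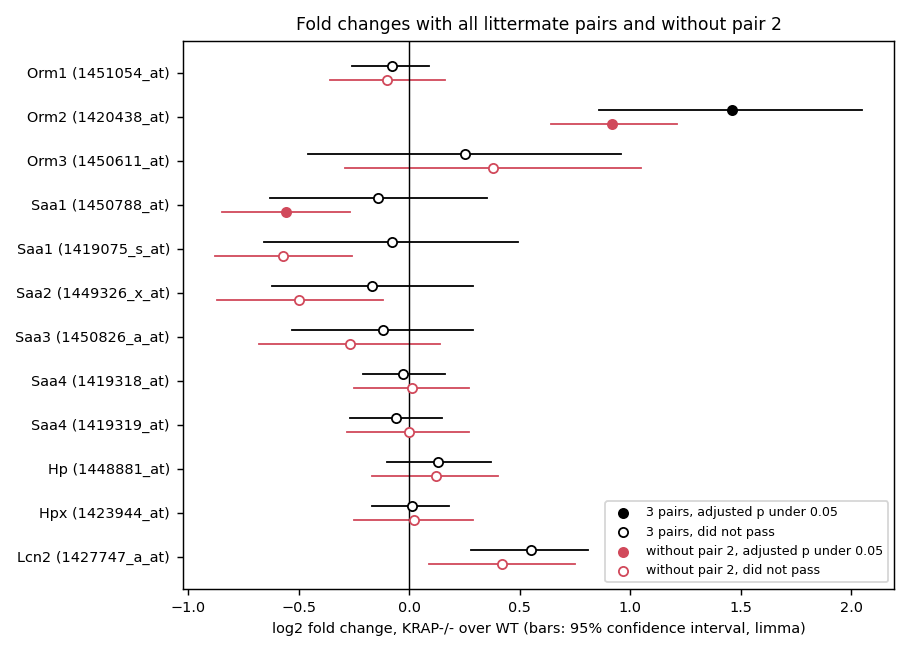
Log2 fold change of each probeset with its 95% confidence interval from limma, with all 3 pairs (black) and without pair 2 (red). Filling marks an adjusted p under 0.05. Orm2 passes in both, with 1.46 and 0.92, and 1 probeset of Saa1 passes only without pair 2, with −0.56.

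How the 10 genes vary together was read from the 6 arrays, as a description, since arrays of 2 genotypes share the difference between them. The log2 signal of Orm2 followed that of Lcn2 (Pearson r = 0.93, n = 6 arrays). The probesets of Saa1 followed each other (r = 0.97) and that of Saa2 (r = 0.90 and 0.84), but Orm2 followed them less (r = 0.40 to 0.48 for Saa1, 0.22 for Saa2). Orm1 ran with Saa1 (r = 0.84 and 0.77) and not with Orm2 (r = 0.08). Saa3 ran against Lcn2 (r = −0.56) and Hp (r = −0.62). Among 19207 probesets of a mean of at least 1, those most like Orm2 were Nisch, 4930453N24Rik and Dnajb4 (r = 0.993, 0.992 and 0.992), and those most like Lcn2 were 9430038I01Rik, Gda and Brap (r = 0.992, 0.986 and 0.985). The gene most like Saa1 was Prpf31 (r = 0.994), and Hpx had Ambp, a plasma protein of hepatocytes, among its nearest 3 (r = 0.991). With 6 arrays such values are common: 72 to 216 probesets had r over 0.9 with each gene.

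Other genes of the acute phase were read at the brightest probeset of each gene. Of 28 further positive acute phase proteins 23 had a probeset of their own, and 0 were higher, 1 was lower and 22 did not pass, with a median log2 fold change of 0.01. The gene that fell was Ifitm3, a membrane protein that interferon also induces, which is no secreted protein. It read 270, 235 and 224 in KRAP-/- liver and 356, 334 and 311 in wild-type liver, a fall to below all wild-type values (log2 fold change −0.46, standard error 0.07, adjusted p = 0.022 from limma), but this call was lost without pair 2 (adjusted p = 0.077) and on unscaled signals (0.17). The other genes had values on both sides of 0, and 5 of them are given here, chosen after their values were seen. Mt2, a metallothionein, read 69.2, 49.2 and 61.2 in KRAP-/- liver and 137, 166 and 46.7 in wild-type liver (−0.78, adjusted p = 0.27), and Hamp2, a hepcidin, 281, 278 and 228 in KRAP-/- liver and 521, 429 and 205 in wild-type liver (−0.45, adjusted p = 0.25). Both were lower in the KRAP-/- mouse of pairs 1 and 2 and higher in pair 3, and without pair 3 both passed as lower (adjusted p = 4.9e-04 and 0.0024 from limma). Crp, C-reactive protein, read 183, 175 and 194 in KRAP-/- liver and 228, 239 and 206 in wild-type liver (−0.29, adjusted p = 0.18). Lrg1, a leucine-rich glycoprotein of the acute phase, read 221, 227 and 164 in KRAP-/- liver and 150, 147 and 179 in wild-type liver. It was higher in pairs 1 and 2 and lower in pair 3 (0.35, adjusted p = 0.27). Without pair 3 Lrg1 passed as higher (0.59, adjusted p = 0.007 from limma). Serpina3n, a protease inhibitor, read 88.8, 80.7 and 72.6 in KRAP-/- liver and 68.5, 60.5 and 67.4 in wild-type liver, higher in all 3 pairs (0.30, adjusted p = 0.17 from limma).

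Negative acute phase proteins are those the liver makes less of during inflammation, such as albumin and transthyretin. Of 14 such genes none passed, with a median log2 fold change of 0.01. The largest values were −0.44 (adjusted p = 0.058) for Igfals, the subunit that holds IGF1 in its plasma complex, and 0.28 (adjusted p = 0.16) for Fetub, a liver protease inhibitor. Igfals read 37.3, 29.9 and 31.1 in KRAP-/- liver and 50.9, 43.8 and 38.5 in wild-type liver, and these values did not overlap.

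**Figure D4:**
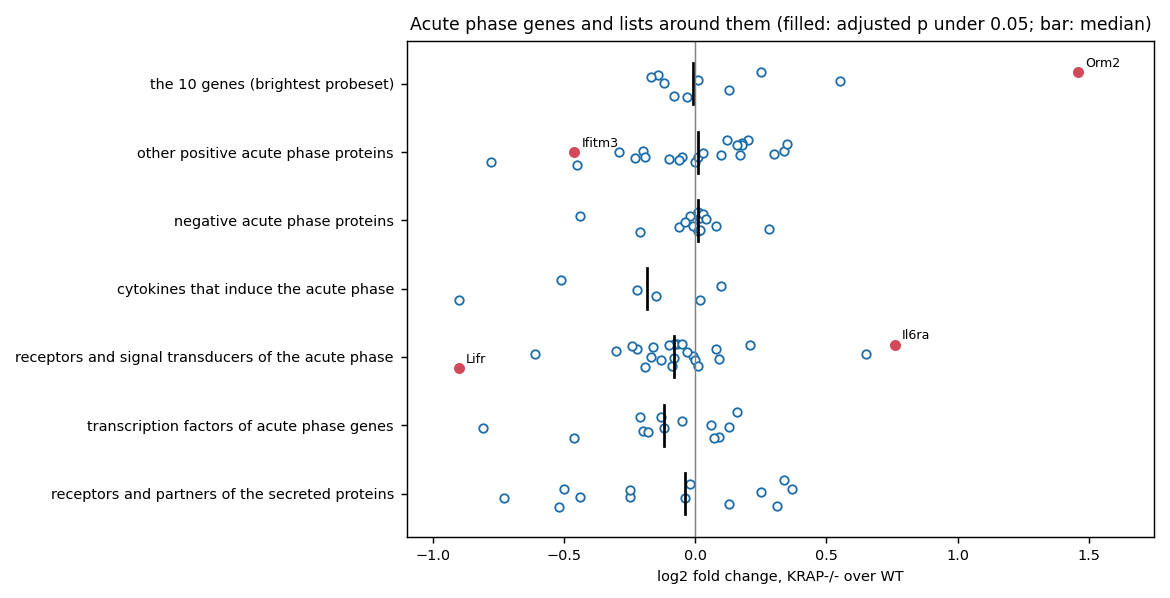
Log2 fold change, KRAP-/- over wild-type, of each gene at its brightest probeset for the 10 genes and for 6 lists around them. Filled points with a name passed the test, and black bars mark medians. Orm2 lies alone at 1.46, while Il6ra lies at 0.76 and Lifr at −0.90 among the receptors.

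Among ligands, 11 of the cytokines that induce the acute phase had a probeset, and 5 of these had a mean under 0.5, Il6 and Tnf among them, at most 0.477 and 0.224 on any array. Of the 6 tested none passed. Il18, chosen after its values were seen, was the brightest, with 14.0 to 17.7 in KRAP-/- liver and 15.4 to 20.0 in wild-type liver (log2 fold change −0.22, adjusted p = 0.36). The largest values were −0.90 (adjusted p = 0.53) for Il1a and −0.51 (adjusted p = 0.76) for Osm, from limma, both with means near or below the array median.

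Of 24 receptors and signal transducers, 1 was higher, 1 lower and 22 did not pass, with a median log2 fold change of −0.08. Il6ra, the receptor chain that binds IL-6, read 13.2, 15.0 and 10.3 in KRAP-/- liver and 6.55, 9.26 and 6.98 in wild-type liver. The genotypes did not overlap, and it rose by 0.76 on the log2 scale, standard error 0.13 (adjusted p = 0.026 from limma), while its adjusted p was 0.063 in the unblocked fit and 0.072 when pair 1 was left out. Its other, dimmer probeset changed by 0.21 (adjusted p = 0.75). Lifr, the receptor chain for leukaemia inhibitory factor, read 72.3, 52.7 and 53.8 in KRAP-/- liver and 95.4, 144 and 97.6 in wild-type liver. It fell by 0.90 (standard error 0.16, adjusted p = 0.033), and a dimmer probeset fell by 0.53 (adjusted p = 0.033), while the dimmest did not pass (adjusted p = 0.59). With quantile normalization the adjusted p of Lifr was 0.056 at its brightest probeset. The chain shared by both receptors, Il6st, changed by −0.17 on the log2 scale (adjusted p = 0.43). STAT3 itself changed by 0.09 (adjusted p = 0.67) and Socs3, a feedback inhibitor that STAT3 induces, by 0.08 (adjusted p = 0.91). Their dimmer probesets did not pass either and differed in sign from these. They ran from −0.36 to 0.31 for Il6st, from −0.15 to 0.46 for STAT3 and from −0.18 to −0.14 for Socs3. The direction of these genes is thus not settled. Il1r1, a receptor of IL-1, read 10.8, 8.16 and 7.03 in KRAP-/- liver and 5.31, 5.82 and 5.16 in wild-type liver, without overlap. It did not pass (0.65, adjusted p = 0.083). Without pairs 1, 2 and 3 in turn its adjusted p was 0.32, 0.05 and 0.043. All these p-values are from limma, and Il6st, STAT3, Socs3 and Il1r1 were named after their values were seen.

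Of 13 transcription factors of acute phase genes none passed, with a median of −0.12. The largest values were −0.81 (adjusted p = 0.12) for Onecut1, a liver factor that read 3.39, 1.43 and 1.55 in KRAP-/- liver and 4.38, 2.55 and 3.67 in wild-type liver, and −0.46 (adjusted p = 0.12) for Stat5b, a transducer of growth hormone. Of 13 receptors and partners of the secreted proteins none passed at its brightest probeset either, with a median of −0.04. Scarb1, the hepatocyte receptor for high density lipoprotein, named after its values were seen, read 78.5, 73.9 and 75.2 in KRAP-/- liver and 59.4, 62.3 and 54.1 in wild-type liver at that probeset (0.37, adjusted p = 0.078), which passed with quantile normalization (0.039). Both of its dimmer probesets passed, with log2 fold changes of 0.62 and 0.47 (adjusted p = 0.019 and 0.05 from limma, the second just under the threshold). The largest values of the list were −0.73 (adjusted p = 0.20) for Tlr2, a receptor of the innate immune system, and −0.52 (adjusted p = 0.78) for Mmp9, a protease that Lcn2 binds. Cd163, the macrophage receptor for haptoglobin bound to haemoglobin, read 8.78 to 11.8 in KRAP-/- liver and 8.50 to 9.35 in wild-type liver (0.25, adjusted p = 0.44 from limma).

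Of 11 markers of macrophages and Kupffer cells 1 was lower and 10 did not pass. All 11 fitted log2 fold changes were below 0, with a median of −0.43, although the KRAP-/- mouse was the higher of pair 1 for Csf1r and Marco (ratios 1.03 and 1.51) and of pairs 2 and 3 for Cd14 (1.21 and 1.08). Their summed signal was 237 to 244 in KRAP-/- liver and 277 to 331 in wild-type liver. The single one that passed was Clec4f, a lectin of Kupffer cells, which read 22.5, 24.0 and 22.9 in KRAP-/- liver and 31.6, 34.8 and 34.1 in wild-type liver (log2 fold change −0.54, adjusted p = 0.025 from limma) with an adjusted p of 0.071 on unscaled signals. Macrophages also make Saa3 and Cd163, and the part of these cells in their values was not tested. Of the adipocyte markers 3 of 5 could be tested and none passed. The largest values were −2.51 (adjusted p = 0.25) for Adipoq and −1.17 (adjusted p = 0.67) for Retn, from limma. Adipoq was dim, at 0.0318 to 0.253 in KRAP-/- liver and 0.444 to 2.20 in wild-type liver, in part below the floor of 0.1. Retn read 0.144, 0.105 and 0.963 in KRAP-/- liver and 0.864, 0.773 and 0.249 in wild-type liver, higher in KRAP-/- liver in pair 3.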

How the data were processed

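Liver RNA of 3 KRAP-/- and 3 wild-type mice was measured on 6 arrays. The deposited values are linear signal intensities that the authors made with GCOS (version not given in the sources used here), 1 per probeset. The methods' scaling to the 50th percentile is not in them. Control probesets (64) were left out, which leaves 45037, of which 34945 are annotated to 1 gene, 932 to several and 9160 to none. Each signal was divided by its array's median, raised to 0.1 where lower, and log2-transformed. The 28531 probesets whose mean reached 0.5 entered limma 3.58.1 under R 4.3.3, blocked by littermate pair, the variance following intensity, and p-values were adjusted by Benjamini-Hochberg (threshold 0.05). The fit was tested on simulated data. The pairing comes from the series' design text, which sets KO1 with WT1, KO2 with WT2 and KO3 with WT3 as littermates. Deviations from the genotype means correlated between littermates with r = 0.0429, 0.00954 and −0.0124. The genes named are all 10 members, and in most lists up to 4 genes that passed or else the 2 with the largest change. Exceptions are stated where they occur, apart from Cd163, Csf1r, Marco and Cd14, which were also added. No hepatocyte marker is named. Markers of lymphocytes, erythroid, endothelial and stellate cells and cholangiocytes were read too, are not described, and none passed. Members, lists and motifs were chosen with earlier results of these data known. Alternatives were other scalings, floors, a pseudocount of 0.25, other lower limits on the mean, a fit without the block or the trend, dropping probesets that may cross-hybridize, a 2-fold rule, and each pair left out in turn. Promoter windows came from RefSeq (GRCm38.p6), 1 start site a gene. Identity of Orm and Saa proteins was not analysed here. Figures used Python 3.11.15 and matplotlib 3.10.9. The number of arrays limits the precision.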

Additional observations from a re-analysis of the deposited data

How the results depend on the processing

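The count of the 12 probesets higher in KRAP-/- liver was 1, and it was 2, Orm2 and Lcn2, on unscaled signals, with quantile normalization, with a floor of 0.5 and without pair 3. It was 0 when all probesets were tested, without the intensity trend and without the replicate block, where Orm2 had adjusted p-values of 0.46, 0.43 and 0.066 from limma. Leaving out a pair gave 1 to 2 higher and 0 to 1 lower. A 2-fold limit in each pair took 0 of the 12. Over all probesets, 0 were higher and 0 lower when all 45037 were tested or no trend was used, with an unadjusted p under 0.05 at 4551 and 3089, while leaving out a pair gave 123 to 295 higher and 288 to 469 lower. With the values as deposited 45.3% of the called probesets were higher and with quantile normalization 42.1%, against 30.6%.

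Probesets that did not pass changed sign in places. Leaving out a pair gave −0.30 to 0.67 for Orm3, −0.56 to 0.13 and −0.57 to 0.29 for Saa1, −0.50 to 0.11 for Saa2, −0.27 to 0.15 for Saa3, −0.09 to 0.01 for the brighter probeset of Saa4 and −0.05 to 0.05 for Hpx. Pair 1 or pair 3 gave the sign change in these, and pair 2 in Saa4. With the values as deposited and with quantile normalization the brighter probeset of Saa4 was at 0.02 and 0.03, and with quantile normalization the dimmer was at 0.02. The cause was not tested. Orm2 passed in 10 of the 13 alternatives, with log2 fold changes from 0.92 to 1.76. It was higher in the KRAP-/- mouse of every pair, so leaving out a pair could not change its sign. Most other settings left its fold change at 1.46, so the shared sign is no further evidence. Pairing by litter changed no other call among the 12 probesets. The signal carries no measure of background here, so dim probesets such as Orm3 are the least certain.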
